A study of Mus musculus with 6 samples.

Results

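The liver makes most of the soluble proteins of blood complement and blood clotting, and the genes described here are 41 of those factors and of their inhibitors. They were taken by symbol from the deposited count table, and all 41 of the 41 symbols matched 1 of its 17275 genes each. All 41 also passed the filter on low counts, which left 12343 genes for testing. The libraries came from hepatocytes of C57BL/6 mice of the genotype Axin2rtTA;TetO-H2B-GFP, in which cells with an active Axin2 promoter, while doxycycline is given, make a histone H2B joined to green fluorescent protein. The mice drank doxycycline for 7 days. The labels give their age as postnatal day 63 and the extraction protocol as 8 weeks. Non-parenchymal cells had been removed, and the hepatocytes were sorted into a fluorescent group, labelled Axin2-positive, and a non-fluorescent group, labelled Axin2-negative, with 3 libraries each. Both groups carried the same alleles and had the same doxycycline, so no library is free of either. The fluorescent histone can outlast the promoter activity that made it, so the sort marks cells that used the promoter during the week of labelling.

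Complement and clotting are cascades of proteases that circulate as inactive precursors. In complement, the classical and lectin routes start on antibody or on microbial sugars, meet at C3, and end in a pore assembled from C5b, C6, C7, C8 and C9. In clotting, vitamin K dependent proteases lead to thrombin, which turns fibrinogen into fibrin, while antithrombin, protein C and plasmin limit or dissolve the clot. Hepatocytes secrete nearly all of these proteins, and several of them, such as C3 and fibrinogen, rise in the acute phase response to inflammation. Axin2 is a target and an inhibitor of Wnt/β-catenin signalling, which in the liver is most active in hepatocytes around the central vein.

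Between 75882611 and 103386648 reads per library fell on genes, with the 2 highest totals in the libraries numbered 1. Each number stands for a sequencing index that occurs once in each group, and the 2 libraries of a number are called a pair here. Axin2 (chromosome 11, 108920349 to 108950783, GRCm38) was measured at 2.40, 22.6 and 24.2 against 3.04, 3.75 and 5.75 CPM in that order, positive libraries first (CPM is the number of reads per 1000000 on totals scaled by the TMM method). In the library labelled Axin2-positive 1 it therefore contradicts the label, a limit on every direction given for pair 1 or for all 6 libraries. The landmark genes of liver zonation were alike in pair 1 too, with the pericentral gene Glul at 88.0 against 87.9 CPM and the periportal gene Cyp2f2 at 1624 against 1653 CPM. In pairs 2 and 3, Glul stood at 339 against 46.9 and at 1049.9 against 119 CPM. Over 10478 genes with at least 200 reads summed over pair 1, the median chi-square (1 degree of freedom) of the difference within the pair was 1.22, against 0.455 for sampling noise and 17.1 and 12.4 in pairs 2 and 3. The Y-linked gene Ddx3y had 7164 and 6759 reads in the libraries of replicate 2 and 0 to 3 in the other 4, so a difference of replicate 2 from the other numbers and one of sex cannot be told apart. All 10 hepatocyte markers were detected in every library. Of 15 Kupffer cell markers 14 matched, and their summed level was 34.8 to 96.4 CPM in the positive group and 34.6 to 107 CPM in the negative group. Mpeg1 made up most of it, and the other 13 summed to 4.56, 1.33 and 6.05 against 4.53, 5.85 and 32.1 CPM. Over the 11 tested Kupffer cell markers, Mpeg1 included, the median log2 differences within pairs 1, 2 and 3 were -0.02, -2.09 and -2.35. Whether each library had its own mouse is not stated, and p-values therefore measure a spread between libraries that may be technical.

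The 41 genes together took a smaller share of the reads in pairs 2 and 3 of the libraries labelled Axin2-positive. Their share was 6.35%, 4.57% and 5.14% in Axin2-positive 1, 2 and 3, against 6.35%, 5.69% and 6.40% in Axin2-negative 1, 2 and 3. The group means were 5.35% ± 0.91 and 6.15% ± 0.40 (SD, n = 3 each), and the groups overlapped, with equal shares in pair 1. C3 and the 3 fibrinogen chains alone made up 44.0% to 54.9% of the reads of the 41 genes. From here on, 6 values are given as Axin2-positive 1, 2 and 3 against Axin2-negative 1, 2 and 3, in CPM, and a log2 difference is positive minus negative with 0.05 CPM added to each value. In bulk libraries such as these, fewer cells of a type and less RNA per cell cannot be told apart.

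Gene by gene, most of the 41 were somewhat lower in the fluorescent library of pairs 2 and 3, and nearly equal in pair 1. The median log2 difference of the 41 genes was 0.00 in pair 1, -0.24 in pair 2 and -0.23 in pair 3, against medians of 0.00, -0.01 and 0.00 over all 12343 genes tested. In pair 2, 31 of the 41 lay below 0, and in pair 3, 32 of 41, where all genes gave 50.7% and 50.5%. The 10 hepatocyte markers had medians of -0.01, -0.13 and -0.24 in pairs 1, 2 and 3. The fit without pair 1 described below called 1 of them higher and 3 lower, where 3.43% and 4.01% of all genes were called. Markers of other cells also lay below 0 in pairs 2 and 3, with medians of -1.45 and -0.51 for the 14 tested of sinusoidal endothelium (0.07 in pair 1), -0.32 and -0.23 for 6 of stellate cells (-0.17 in pair 1) and -3.42 and -3.33 for 3 of bile duct (-0.03 in pair 1). Summed over the whole list, endothelial markers stood at 88.0, 4.12 and 94.4 against 86.4, 10.9 and 136 CPM. Stellate cell markers stood at 5.99, 0.20 and 5.14 against 5.97, 0.96 and 6.50 CPM. Both sums were lowest in the libraries of replicate 2. Bile duct markers summed to 33.8, 15.0 and 15.3 against 34.8, 22.7 and 22.0 CPM. No gene of these 3 lists was at 0 in all 6 libraries. Their part in the results of the 41 genes was not tested. In both pairs at once 29 of the 41 were lower, of a background of 36.5% of all genes tested, and 7 were higher (Mbl1, Mbl2, C6, C8b, C4bp, F13b and Cpb2), of a background of 35.3%. In all 3 pairs 17 were lower, of a background of 20.1%, and 5 were higher, of a background of 19.5%. Most of these differences were small. A difference of at least 1.5 times in either direction was found for 0 of the 41 in pair 1, 3 in pair 2 and 6 in pair 3, against 3.31%, 20.2% and 16.5% of all genes. A difference of at least 1.5 times in the same direction in both pairs was found for C4bp (higher, background 3.22%) and for C9 (lower, background 6.64%). Across the 41 genes the differences of pairs 2 and 3, which share no library, correlated at Pearson's r = 0.73 and Spearman's rho = 0.69, a description over genes that are not independent replicates, and over all tested genes at r = 0.69.

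**Figure D1:**
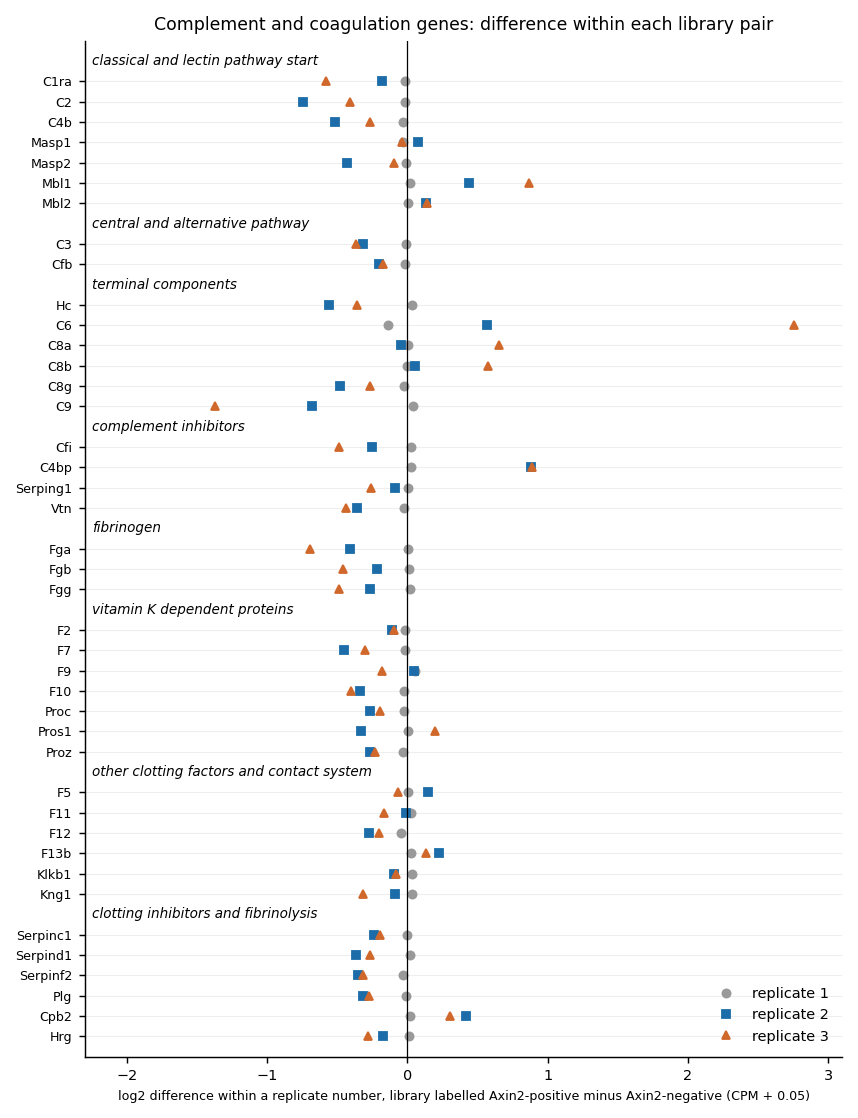
Log2 difference within each pair (library labelled Axin2-positive minus Axin2-negative, CPM + 0.05) for the 41 genes, grouped by role, with a grey circle for replicate 1, a blue square for replicate 2 and an orange triangle for replicate 3. The grey circles lie near 0 throughout, 29 genes have both other symbols below 0, and C4bp, C6 and C9 reach farthest.

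**Figure D2:**
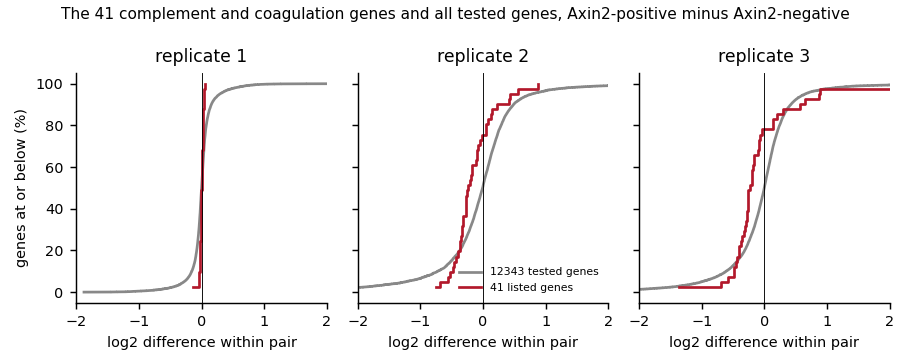
Share of genes (vertical axis, %) at or below each log2 difference (horizontal axis, shown from -2 to 2) in pairs 1, 2 and 3, for the 41 complement and coagulation genes (red) and all 12343 tested genes (grey). In replicates 2 and 3 the red line crosses 0 above the grey one, at 31 and 32 of 41 genes, while in replicate 1 the red line is steep at 0.

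No gene of the 41 passed the test over all 6 libraries. With edgeR's quasi-likelihood test and a Benjamini-Hochberg adjusted p under 0.05, the calls among the 41 were 0 in each direction, and the background was 0% of 12343 genes in each. At an unadjusted p under 0.05 it listed 0 of the 41 and 2.26% of all genes. DESeq2 and limma-voom also called 0 genes. With the replicate number as a block the test again called 0, and listed 1 of the 41 (C4bp, named after its value was seen) and 9.17% of all genes at an unadjusted p under 0.05. Of the 41, 1 gene had groups that did not overlap, C2, lower in all 3 libraries labelled Axin2-positive, and 3.77% of all genes tested were of that kind; 0 of the 41 and 3.44% of all genes did not overlap in the opposite direction. The largest log2 fold changes of this fit were 0.65 for C4bp (SE 0.28, 95% interval -0.04 to 1.33), 0.60 for C6 (SE 2.37), 0.47 for Mbl1 (SE 0.21) and 0.24 for Cpb2 (SE 0.16). In the other direction they were -0.62 for C9 (SE 0.71, 95% interval -2.36 to 1.12), -0.42 for C2 (SE 0.21), -0.35 for Hc (SE 0.32) and -0.30 for Fga (SE 0.34). The adjusted p of edgeR's test was 0.999 for each of these 8 genes, and the intervals leave room for differences of the size seen in pairs 2 and 3.

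With pair 1 left out and the replicate number as a block, 3 of the 41 passed. At an unadjusted p under 0.05 were 21 of the 41 and 27.1% of all genes. C4bp was called higher, of a background of 3.43% of 12385 genes, and C9 and Fga lower, of a background of 4.01%. Pair 1 was left out with its Axin2 values known, and the fit of 2 pairs rests on 1 residual degree of freedom. Tested against a fold of 1.5 in the same fit, 0 of the 41 passed, where 0.791% of all genes were called higher and 0.888% lower, and at an unadjusted p under 0.05 were 3 of the 41 and 7.73% of all genes. With only the library labelled Axin2-positive 1 left out and no block, 0 of the 41 passed in either direction, of a background of 0.00796% higher and 0.0398% lower, with 6 of the 41 and 13.3% of all genes at an unadjusted p under 0.05. With pair 2 or pair 3 left out instead, edgeR called 0 genes in all, with 0 of the 41 at an unadjusted p under 0.05.

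The terminal components, which build the membrane pore, held both the largest positive and the largest negative difference of the 41 genes in pair 3 (C6 and C9), while in pair 2 these were C4bp and C2. C6 and C9 lie on chromosome 15 at 4727175 to 4814967 and 6445327 to 6498751, both on the plus strand. The 150 bases before their RefSeq transcription starts (chr15:4727060-4727209 and chr15:6445196-6445345, plus strand, GRCm38.p6) are shown because these 2 genes differed most within pair 3. Each RefSeq start lies inside the gene coordinates given above, so the end of each stretch falls within the gene. Neither stretch holds the letters GTTAAT or their reverse complement. The C9 stretch holds TTGCNNAA, a pattern searched below, 132 bases upstream.
C6: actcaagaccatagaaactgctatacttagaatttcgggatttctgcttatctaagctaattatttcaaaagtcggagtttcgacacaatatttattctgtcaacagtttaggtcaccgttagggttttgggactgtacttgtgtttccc
C9: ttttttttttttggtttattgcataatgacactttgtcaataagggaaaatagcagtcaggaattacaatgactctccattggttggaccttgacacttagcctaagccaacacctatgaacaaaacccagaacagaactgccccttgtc

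C6, the first protein to bind C5b, stood at 1.94, 437 and 15.5 against 2.14, 295 and 2.26 CPM, from 189, 34477 and 1337 against 205, 23715 and 198 reads. The 2 libraries of replicate 2 were far above the other 4, by 66.9-fold in the mean, and within pair 3 the library labelled Axin2-positive was 6.89-fold above its partner. That library held 0 reads of Ddx3y. Within pair 2 the ratio was 1.48 and the 2 groups overlapped. C6 did not pass the fit of 2 pairs (log2 fold change 1.60, SE 0.52, edgeR adjusted p = 0.129).

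C9, which polymerises to form the wall of the pore, stood at 365, 729 and 148 against 355, 1169.7 and 384 CPM. It was also highest in the libraries of replicate 2, by 3.03-fold in the mean, but within each of pairs 2 and 3 the library labelled Axin2-positive was the lower one. Those log2 differences were -0.68 and -1.37, and pair 1 gave 0.04. In the fit of 2 pairs C9 fell by 1.02 on the log2 scale (SE 0.18, edgeR adjusted p = 0.0395). C6 and C9 were therefore both high in replicate 2 and lay on opposite sides of 0 within pairs 2 and 3.

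Component C8 has 3 chains, and C8g did not vary together with C8a and C8b. C8a and C8b, which encode the α and β chains, are neighbours 11.1 kb apart on chromosome 4 (C8b 104766317 to 104804548, C8a 104815679 to 104876398). C8a stood at 344, 869 and 506 against 342, 899.9 and 322 CPM and C8b at 199, 479.9 and 258 against 199.5, 463 and 173 CPM. The libraries of replicate 2 were above the other 4 for both, and in pair 3 the fluorescent library was higher by 0.65 and 0.57 on the log2 scale. The ratio of C8a to C8b reads stayed between 1.71 and 1.96 over the 6 libraries. C8g on chromosome 2, which encodes the γ chain, stood at 323, 244 and 217 against 328, 341 and 261 CPM, with no excess in replicate 2, and the ratio of C8a to C8g reads ran from 1.04 to 3.57. Hc, the mouse name of the C5 gene, stood at 749.5, 1096 and 997 against 733, 1615 and 1276 CPM and was lowest in pair 1.

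**Figure D3:**
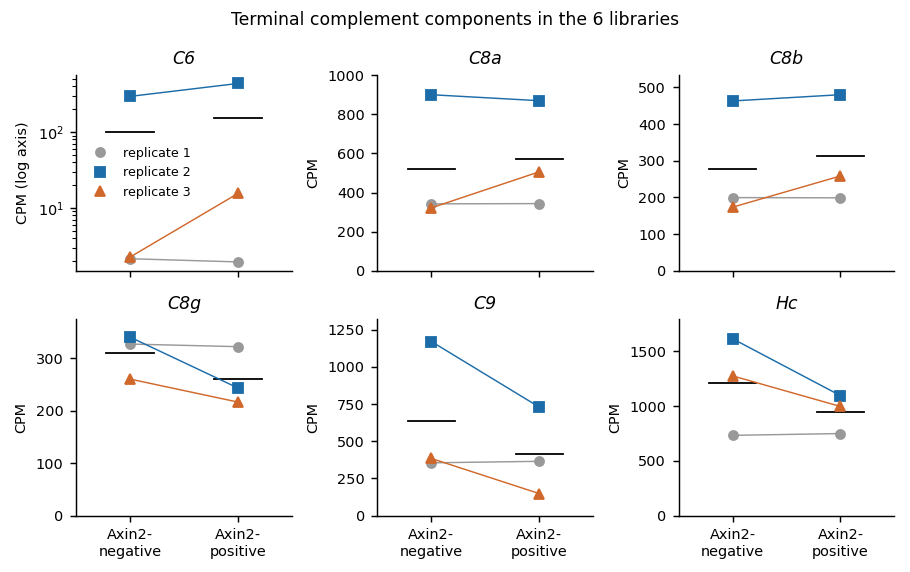
CPM of 6 terminal component genes by group, with a symbol per library, lines joining the libraries of 1 replicate number, and black bars at group means (C6 on a log axis, the others on linear axes from 0). The blue squares of replicate 2 stand highest for C6, C8a, C8b and C9 in both groups, and within replicates 2 and 3 C9 is lower in the library labelled Axin2-positive.

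Among the genes that start the classical and lectin pathways, Mbl1 and C2 lay at opposite ends in pair 2. In pair 3 Mbl1 was again highest, and C1ra was lowest at -0.58 on the log2 scale. Mbl1, a mannose-binding lectin that recognises microbial sugars, stood at 140.3, 214 and 229 against 139, 158 and 126 CPM. Both fluorescent libraries of pairs 2 and 3 were above all 4 other libraries, by ratios of 1.36 and 1.82 to their partners (fit of 2 pairs: log2 fold change 0.65, SE 0.14, edgeR adjusted p = 0.057). Mbl2, the second such lectin, stood at 491, 267 and 646 against 490.1, 244 and 588 CPM, with both libraries of replicate 2 lowest, 2.17-fold below the mean of the others. C2, the protease part of the classical C3 convertase, stood at 105, 106 and 90.5 against 107, 177 and 120.5 CPM. All 3 libraries labelled Axin2-positive were below all 3 others, although pair 1 differed by only -0.01 on the log2 scale (fit of 2 pairs: -0.58, SE 0.12, edgeR adjusted p = 0.0555).

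C4b, which supplies the other part of that convertase, stood at 2154, 1351 and 1347 against 2204, 1936 and 1618 CPM. Its reads are uncertain to the extent that they were shared with the near-identical gene C4a. C1ra, a protease of the C1 complex, stood at 253, 285 and 179 against 256, 324 and 268 CPM, with the library labelled Axin2-positive 3 lowest. Masp1 and Masp2 encode the proteases that travel with the lectins. Masp1 stood at 96.7, 117 and 109 against 99.0, 111 and 111 CPM, within a narrow range in all 6. Masp2 stood at 173, 149 and 145 against 174, 201 and 155 CPM. Of the 3307 exon bases of Masp2, 54.9% overlap exons of Tardbp on the opposite strand, and since no source gives the strand setting of the counts, the 2 genes' reads may be mixed.

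At the centre of the cascade, C3 took the largest share of reads of the 41. It stood at 14976, 7682 and 13946 against 15109, 9572 and 18023 CPM. The libraries of replicate 2 were lowest, 1.80-fold below the mean of the other 4. Within pairs 2 and 3 the log2 differences were -0.32 and -0.37 (fit of 2 pairs: log2 fold change -0.34, SE 0.07, edgeR adjusted p = 0.0526). Cfb, factor B of the alternative pathway, stood at 1642, 1082 and 1293 against 1661, 1242 and 1459.5 CPM, with differences of -0.20 and -0.17 in pairs 2 and 3. Cfb and C2 are adjacent on chromosome 17 (Cfb 34856374 to 34862518, C2 34862604 to 34898265), 86 bases apart. An annotated read-through gene, Gm20547, shares 79.5% of the exon bases of Cfb and 42.8% of those of C2. C4b lies 112 kb away on the same strand.

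The complement inhibitors held the 1 gene of the 41 that was called higher. C4bp (chromosome 1, 130634773 to 130661632, minus strand) encodes C4b-binding protein, which helps to inactivate C4b. The 150 bases before its RefSeq start (chr1:130661619-130661768, minus strand, GRCm38.p6) are shown because it is that gene, with nearly the same difference in pairs 2 and 3. Capitals mark GTTAAT, a core motif of the hepatocyte factor HNF1, which starts 64 bases upstream of the RefSeq start. That start lies inside the gene coordinates given above, so the last bases of the stretch fall within the gene.
C4bp: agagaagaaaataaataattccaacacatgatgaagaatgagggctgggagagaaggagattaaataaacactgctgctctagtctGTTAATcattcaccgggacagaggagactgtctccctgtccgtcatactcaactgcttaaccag

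C4bp stood at 497, 997 and 734 against 487, 541 and 396 CPM. The fluorescent libraries of pairs 2 and 3 were the highest of the 6, 1.84-fold and 1.85-fold above their partners, and pair 1 was equal within 0.03 on the log2 scale. In the fit of 2 pairs it rose by 0.89 on the log2 scale (SE 0.10, edgeR adjusted p = 0.0149). Against C4b, the target of its product, the read ratio ran from 0.221 to 0.738 over the 6 libraries, with the 2 highest values in those fluorescent libraries. The other inhibitors were lower or level. Cfi, the protease that cuts C3b and C4b, stood at 932, 532 and 631 against 916, 634 and 887 CPM. Serping1, the C1 inhibitor, stood at 866, 857 and 754 against 865, 910.1 and 904 CPM, with the fluorescent library lower in pairs 2 and 3 by small amounts. Vtn, vitronectin, which blocks insertion of the pore, stood at 2614, 1896 and 1879.7 against 2664, 2437 and 2546 CPM, and Axin2-positive 2 and 3 were below the other 4 (fit of 2 pairs: log2 fold change -0.40, SE 0.09, edgeR adjusted p = 0.0681).

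Fibrinogen is a dimer of 3 chains, and the genes of all 3 lie side by side on chromosome 3 (Fgg 83007724 to 83015049, Fga 83026076 to 83033627, Fgb 83040141 to 83049863). The 150 bases before each RefSeq start (Fga chr3:83026003-83026152 and Fgg chr3:83007574-83007723, plus strand, Fgb chr3:83049864-83050013, minus strand, GRCm38.p6) are shown because the 3 genes differed in the same direction. Capitals mark ATTAAC, the reverse complement of GTTAAT, at 43 bases upstream of the RefSeq start in Fga and 29 in Fgb. The Fgg stretch holds neither. The RefSeq start of Fga lies inside the gene coordinates given above, so part of its stretch, with the marked letters, falls within the gene. TTGCNNAA or its reverse complement, a pattern searched below and not marked, lies 135 bases upstream in Fga and 80 in Fgb.
Fga: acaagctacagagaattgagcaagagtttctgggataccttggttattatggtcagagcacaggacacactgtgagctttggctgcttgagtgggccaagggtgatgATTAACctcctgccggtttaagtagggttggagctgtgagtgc
Fgb: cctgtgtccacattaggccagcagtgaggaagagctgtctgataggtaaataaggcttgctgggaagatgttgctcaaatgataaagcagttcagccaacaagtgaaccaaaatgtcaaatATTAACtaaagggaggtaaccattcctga
Fgg: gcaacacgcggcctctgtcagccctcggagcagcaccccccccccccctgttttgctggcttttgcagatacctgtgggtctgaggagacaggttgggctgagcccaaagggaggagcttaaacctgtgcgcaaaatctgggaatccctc

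Fga, the α chain, stood at 8473, 4508 and 3953 against 8466, 5973 and 6386 CPM. Fgb, the β chain, stood at 7467, 4382 and 3868 against 7407, 5085 and 5323 CPM. Fgg, the γ chain, stood at 6178, 3277 and 2732 against 6108, 3940.5 and 3834 CPM. For all 3 genes, pair 1 was highest and equal within the pair, and Axin2-positive 2 and 3 were the lowest 2 of the 6 libraries. The log2 differences in pair 2 were -0.41, -0.21 and -0.27 for Fga, Fgb and Fgg, and in pair 3 -0.69, -0.46 and -0.49. In the fit of 2 pairs Fga fell by 0.55 on the log2 scale (SE 0.10, edgeR adjusted p = 0.0419). Fgb and Fgg did not pass, at -0.34 (SE 0.10, edgeR adjusted p = 0.103) and -0.38 (SE 0.10, edgeR adjusted p = 0.0856), and whether Fga differs from them was not tested. The read ratio of Fga to Fgg stayed between 1.37 and 1.67 in the 6 libraries, and that of Fgb to Fgg between 1.21 and 1.42.

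**Figure D4:**
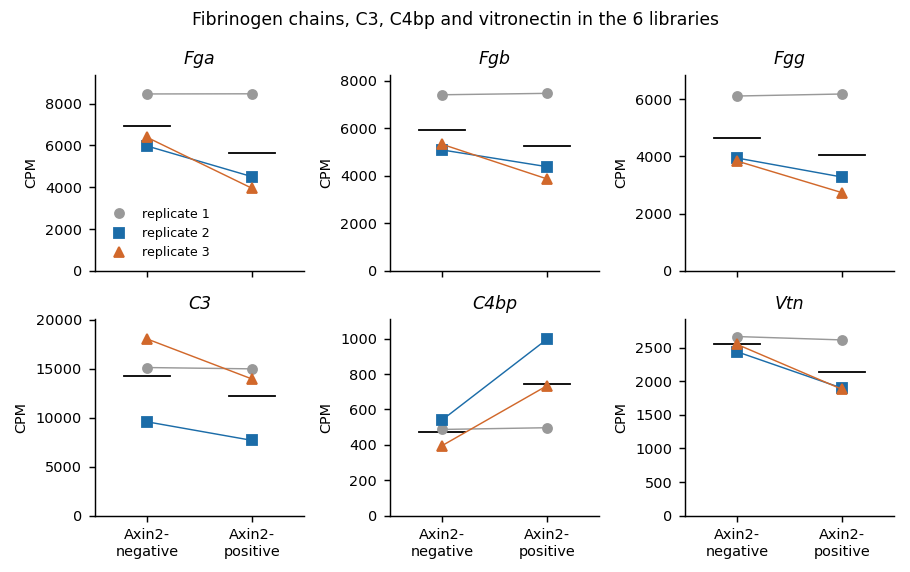
CPM of Fga, Fgb, Fgg, C3, C4bp and Vtn by group on linear axes from 0, with a symbol per library, lines joining the libraries of 1 replicate number, and black bars at group means. For the fibrinogen chains the blue and orange lines of replicates 2 and 3 go down toward the group labelled Axin2-positive, for C4bp they go up by 1.84-fold and 1.85-fold, and the grey line of replicate 1 is flat.

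The 7 vitamin K dependent proteins carry γ-carboxyglutamate, which lets them bind calcium and phospholipid. None of the 7 passed either fit. F2, prothrombin, stood at 2148, 1650.3 and 1719 against 2172, 1779.6 and 1836 CPM, with log2 differences of -0.11 and -0.09 in pairs 2 and 3. F7, which starts clotting together with tissue factor, stood at 137, 84.9 and 122 against 139, 116 and 150.1 CPM, and F10, which makes thrombin from prothrombin, at 485, 335 and 379 against 492, 424 and 500.5 CPM. Both were lower in the fluorescent library of pairs 2 and 3. F7, F10 and Proz follow each other on chromosome 8 (13026034 to 13035809, 13037308 to 13056676 and 13060914 to 13076026). Proz, protein Z, a cofactor in the inhibition of factor Xa, stood at 367, 291 and 346 against 374, 351 and 406 CPM and differed by -0.27 and -0.23. F9, the X-linked gene of the haemophilia B factor, stood at 287, 238 and 247 against 276, 231 and 280.1 CPM and was not on 1 side of 0 in pairs 2 and 3. Proc, protein C, which inactivates factors Va and VIIIa, stood at 440.2, 391 and 353 against 447, 471 and 405 CPM. Its cofactor Pros1, protein S, stood at 31.4, 38.5 and 65.3 against 31.2, 48.5 and 57.1 CPM, and the 2 libraries of pair 3 were the highest.

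The other clotting factors and the contact system differed little between the groups. F5, the cofactor of factor Xa, stood at 852, 756 and 846 against 848, 685 and 886 CPM. F11 stood at 138, 137 and 107 against 135, 138 and 121 CPM, and F12, which starts the contact pathway, at 507, 439.6 and 401 against 523, 533 and 462 CPM. F13b, the carrier subunit of the fibrin-linking factor XIII, stood at 291, 278 and 308 against 286, 238 and 281 CPM, and the library labelled Axin2-positive was slightly higher within each of the 3 pairs. Klkb1, prekallikrein, stood at 254, 233 and 257 against 248, 250.1 and 273 CPM, between -0.10 and 0.03 on the log2 scale in the 3 pairs. An annotated gene on the same strand, Gm45753, shares 43.2% of the exon bases of Klkb1. Kng1, the kininogen that kallikrein cuts, stood at 2989.9, 1663 and 2058 against 2922, 1773 and 2569 CPM, and replicate 2 was lowest in both groups. None of these 6 passed either fit, and the medians of their log2 differences in pairs 2 and 3 were -0.05 and -0.13.

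Clotting inhibitors and genes of fibrinolysis were mostly lower in the fluorescent libraries of pairs 2 and 3, with 1 exception, and none passed either fit. Serpinc1, antithrombin, stood at 2701, 1808 and 2062 against 2707, 2138 and 2358 CPM. Serpind1, heparin cofactor II, stood at 721, 537 and 678 against 710.4, 691 and 815 CPM, and Serpinf2, the inhibitor of plasmin, at 1177, 841 and 989 against 1204, 1073 and 1233 CPM. The fluorescent library was lower in pairs 2 and 3 for all 3 of these inhibitors. Plg, plasminogen, stood at 3502, 2504 and 2865 against 3526, 3118 and 3462 CPM, and Hrg, histidine-rich glycoprotein, at 1037, 919 and 889.7 against 1029.9, 1039.7 and 1081 CPM. For Plg the 2 differences were -0.32 and -0.27, and for Hrg -0.18 and -0.28. Cpb2, which encodes the carboxypeptidase that slows fibrin breakdown, was the exception at 432, 451 and 388 against 426, 337 and 315 CPM, with log2 differences of 0.42 and 0.30 (fit of 2 pairs: 0.36, SE 0.11, edgeR adjusted p = 0.108). Exons of Serpinc1 and Plg overlap those of Zbtb37 and Slc22a3 on the opposite strand, over 34.4% and 11.3% of their bases.

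For several of these genes the replicate number set the libraries apart more than the sorted group did. The range over the 3 libraries labelled Axin2-negative was larger than the largest difference within any pair for 22 of the 41, and for 56.1% of all genes tested. Both libraries of replicate 2 were above the other 4 for 5 of the 41 (C1ra, C6, C8a, C8b and C9; 14.9% of all genes) and below them for 8 (Mbl2, C3, Cfb, F7, F9, F5, F13b and Kng1; 17.2% of all genes). These shares are near the background. The summed endothelial and stellate cell markers given above were also lowest in replicate 2, and their part in these differences was not tested. The largest ratios of the means were 66.9-fold, 3.03-fold, 2.34-fold and 2.27-fold higher in replicate 2, for C6, C9, C8a and C8b, and 2.17-fold lower for Mbl2.

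**Figure D5:**
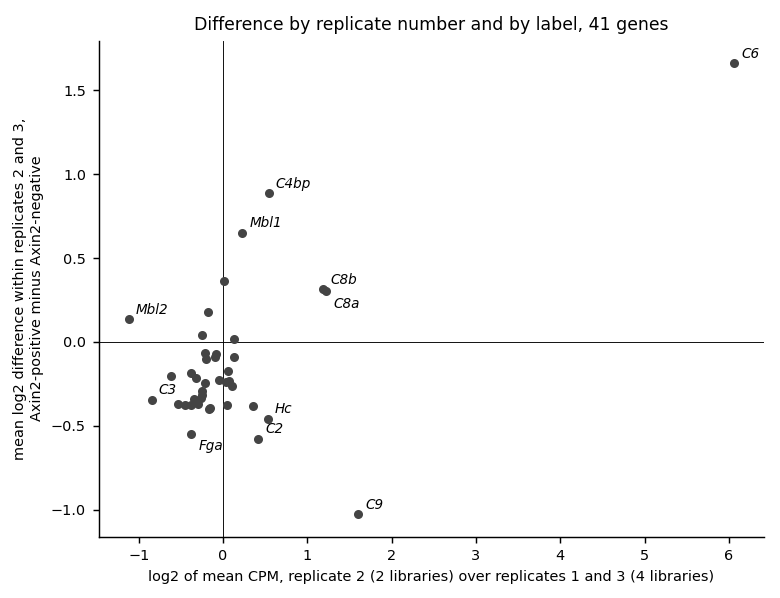
Each point is 1 of the 41 genes, placed by the log2 ratio of its mean CPM in the 2 libraries of replicate 2 to that in the other 4 (horizontal axis) and by its mean log2 difference within pairs 2 and 3, Axin2-positive minus Axin2-negative (vertical axis). Most points lie below 0 on the vertical axis and within 1 of 0 on the horizontal one, and C6, at a mean ratio of 66.9, lies far to the right.

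RefSeq's promoter table (GRCm38.p6, 250 bases before to 50 after the start) held 32 of the 41 genes, and 4 motifs were searched there on both strands. The HNF1 motif GTTAAT occurred in 11 of the 32 (34.4%) and in 7.20% of 27025 promoters of the same length in the table. TTGCNNAA, a C/EBP-type pattern, also occurred in 11 of the 32, and in 10.8% of all. TTCNNNGAA, the STAT-type pattern of acute phase genes, occurred in 8 (25%) and in 8.47% of all. CTTTGAT, the TCF-type pattern bound by partners of β-catenin, occurred in 2 (Masp2 and Serpind1; 6.25%) and in 3.72% of all. GTTAAT was found for Fga, Fgb and C4bp, and so for genes on both sides of 0. A match describes letters in these windows and not binding.

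Among 49 other complement and coagulation genes, 40 were matched and 28 were tested. Of the 28, 0 passed the test over 6 libraries, and in the fit of 2 pairs 3 passed as lower, where 4.01% of all genes did. Among those with the most reads were Clu, clusterin, at 856, 1096 and 935 against 862, 1346 and 1088 CPM, and C1s, the partner of C1ra, at 567, 746 and 549 against 559, 654 and 576 CPM. The 3 that fell, C1qa, C1qc and Vsig4, are macrophage genes also listed as Kupffer cell markers, and all stood at or below 2.27 CPM. In the same fit 7 of 11 tested Kupffer cell markers fell and 0 rose, and their part in the results of the 41 genes was not tested.

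Of 8 genes for vitamin K dependent γ-carboxylation and for secretion of clotting factors, 0 passed either fit. Of 23 regulators known to act on such genes, 22 were tested in the fit of 2 pairs, and 0 passed as higher and 3 as lower, where 3.43% and 4.01% of all genes did. These 3 are named here after their values were seen. Cebpb, an acute phase transcription factor, stood at 44.3, 63.7 and 79.9 against 45.6, 118 and 143 CPM, and its log2 fold change in that fit was -0.86 (SE 0.10, edgeR adjusted p = 0.0126). Il6ra, the receptor of interleukin 6, which drives the acute phase response, stood at 42.2, 11.7 and 21.7 against 42.6, 24.2 and 43.2 CPM, at -1.02 (SE 0.09, edgeR adjusted p = 0.00751). Cux2, a repressor expressed mainly in female liver, was at 0 reads in both libraries of replicate 2. In pair 3 it stood at 6.12 against 35.0 CPM (log2 fold change in that fit -2.51). Its value and its place among the 3 rest on pair 3, with no spread between pairs behind them.

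Levels between genes can be set in order only per length, for which the authors' deposited table of FPKM (fragments scaled by transcript length and library depth) gives 1 value per group with no spread. There, 40 of the 41 genes had transcripts with usable status, 49 in all, and C3 had none, since it was listed as too deep to test. Summed over transcripts, Fgb was highest in the authors' deposited table at 2738 FPKM in the Axin2-positive and 2921 FPKM in the Axin2-negative group, then Fgg at 2484 and 2607 and Fga at 1825 and 2142. Vtn came next at 1370 and 1673 FPKM, and Plg, Serpinc1, Kng1 and F2 followed, from 1003 to 1148 FPKM in the 2 groups of the authors' deposited table. Pros1 was lowest at 13.4 and 13.6 FPKM in the authors' deposited table, and C6 stood at 32.2 and 34.5, a group value that hides its spread over the libraries. The mean CPM of C6 lay the other way, at 151 in the Axin2-positive and 99.8 in the Axin2-negative group. None of the 49 transcripts was marked significant in the authors' deposited table, where 0.701% of 13843 usable transcripts were. The lowest unadjusted p there among the 41 genes was 0.0478, for C9, and the q-value was 0.9995 for all 49.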

How the data were processed

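Polyadenylated RNA of 6 libraries was sequenced on an Illumina instrument after stranded library preparation, per the labels' protocols. The authors deposited integer counts of reads, keyed by gene symbol, for each library, and per transcript 1 FPKM value for each group beside p-values and q-values, per the file headers. Alignment to mm10 used TopHat2 2.0.11 and the group comparison Cuffdiff 2.2.2, per the submitters' processing notes. How reads were counted, on which annotation and whether by strand, is not given in the sources used here. Genes that share exons or near-identical sequence are therefore uncertain.

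The main test was edgeR's quasi-likelihood F test on the group alone (edgeR 4.0.16, R 4.3.3), after filterByExpr and TMM scaling, with Benjamini-Hochberg adjustment over all genes tested and a threshold of 0.05. Totals were 75882611 to 103386648 reads per library, so sampling error is small beside the spread between libraries. Replicate numbers stand for shared indexes. Deviations from the group means correlated at 0.68, 0.82 and 0.75 between libraries of 1 number and at most at 0.14 between others. The numbers were therefore taken to pair the libraries. A cut at 0.1 alone would not separate them, since Axin2-positive 1 with Axin2-negative 3 gave the 0.14. The 3 deviations of a group add up to 0, so the correlations depend on each other. SE is the log2 fold change divided by the root of F.

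Alternatives were the replicate block, DESeq2 1.42.0, limma-voom (limma 3.58.1), other scalings and filters, each library left out, and each pair left out. The 41 genes, the other gene lists and the fit without pair 1 were chosen with earlier results of these data known. Every one of the 41 is given with its value in each library. Fit statistics are printed for the 4 largest log2 fold changes in each direction, for calls of the fit of 2 pairs, and for genes named beside them. For Cux2 only the log2 fold change is printed. Coordinates are from the GENCODE annotation of GRCm38, and 98.5% of 27020 loci in the authors' table overlapped the annotated gene of the same symbol. Coordinates of Proc, and some results of the list of other complement and coagulation genes, are not reported here. The scripts were tested on simulated data.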

Additional observations from a re-analysis of the deposited data

How the results depend on the processing

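Counts of calls moved only where pair 1 or the library labelled Axin2-positive 1 was left out. Over the 6 settings that each left out 1 library, 0 to 1 genes in all were called higher and 0 to 5 lower, and 0 of the 41 in either direction; the 1 and the 5 came without the library labelled Axin2-positive 1. The fit without pair 1 and with the replicate block called 425 genes higher and 497 lower, of which 1 and 2 were among the 41, at log2 fold changes of 0.89 for C4bp, -1.02 for C9 and -0.55 for Fga. Against a fold of 1.5 that fit called 98 higher and 110 lower. The replicate block on all 6 libraries, for which the numbers pair the libraries, called 0 and 0 and changed no other call. The log2 fold change of C6 ran from -3.52 to 6.10 over the settings that left out 1 library, and turned negative without Axin2-positive replicate 2. That of C9 ran from -1.31 to 0.17 and turned positive without Axin2-negative replicate 2. Over the same settings the other 6 printed values kept their sign and moved by over 1.5 times at 1 end or more for C4bp (0.37 to 0.86), Cpb2 (0.15 to 0.38), C2 (-0.56 to -0.18), Hc (-0.61 to -0.08) and Fga (-0.72 to -0.10), with Mbl1 from 0.33 to 0.65. The lowest sizes came without Axin2-positive replicate 2 for C4bp, without Axin2-positive replicate 3 for Fga and without Axin2-negative replicate 2 for C2 and Hc. Without the 20 genes with the most reads among all others, the share of reads was 7.14% and 8.21% in the 2 groups. DESeq2 gave no adjusted p for C6, so that alternative has no value. In all, 231 of the alternative values kept their direction and their side of the threshold, or moved by less than the spread.

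The small number of libraries sets the limits. Over 6 libraries the labels of pair 1 are open to the doubt its Axin2 values raise, and the fit of 2 pairs has 1 residual degree of freedom. Depth limits none of the 41 genes but C6, which had 189 to 205 reads in 3 of the 6 libraries.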

Other observations

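C4a is the neighbour and near-identical copy of C4b on chromosome 17 (34809092 to 34823464, GRCm38), whose product is known in mice as the sex-limited protein. It was chosen after its values were seen. C4a stood at 9.80, 88.5 and 2.67 CPM in Axin2-positive 1, 2 and 3, against 11.2, 171 and 4.89 CPM in Axin2-negative 1, 2 and 3. Both libraries of replicate 2, the ones with reads of Ddx3y, were the highest of the 6, and in each of the 3 pairs the library labelled Axin2-positive was the lower one. C4b was also lower in the library labelled Axin2-positive of each pair, by only -0.03 on the log2 scale in pair 1. Unlike C4a, it had its highest values in pair 1.

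F2r, which encodes the thrombin receptor PAR1, followed the order of C6 over the libraries and was also chosen after its values were seen. It stood at 1.55, 48.4 and 4.67 CPM against 1.59, 33.3 and 1.93 CPM, in the same order. Its log2 fold change in the fit of 2 pairs was 0.85 (SE 0.19, edgeR adjusted p = 0.0595), so it did not pass. Receptors on other cells are outside the 41 genes, and which cells of the sort gave these reads was not tested.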
